A study of Mus musculus with 12 samples.

Results

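Immediate early genes were followed in neural stem/progenitor cells (NPCs) of the mouse subventricular zone, isolated from pups at postnatal days 9 to 12 and profiled by RNA-seq. The 10 genes chosen by name were Fos, Fosb, Fosl1, Fosl2, Jun, Junb, Egr1, Egr2, Ier2 and Nr4a1. All 10 were among the 24108 genes listed in the count table and all 10 passed the low-count filter, which 13745 genes passed in all. There were 4 groups of 3 libraries, which crossed genotype (p53+/+ or p53-/-) with culture (alone or in co-culture). NPCs of both genotypes carried p53 LoxP/LoxP alleles. The p53-/- cells had been infected with Ad-CMV-iCre, an adenovirus that expresses Cre recombinase from the CMV promoter, and the p53+/+ cells with the Ad-CMV-Null control virus. Cells cultured alone were on laminin, and co-cultured cells spent 48 h on top of primary brain microvascular endothelial cells (bmvECs) and then taken off by selective trypsinization. All cultures were grown with EGF, bFGF, a low dose of fetal bovine serum and pituitary extract, all of which can induce immediate early genes. The co-culture is a model of contact-induced quiescence of NPCs, and each library is a culture of many cells, so that fewer cells of a type and less RNA per cell cannot be told apart.

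Immediate early genes are transcribed within minutes of a stimulus, from factors already present in the cell, and their mRNAs are short-lived. Growth factors act through the ERK cascade on serum response factor and its ETS partners, and calcium and cAMP act through CREB. The proteins encoded are mostly transcription factors. Fos and Jun family proteins pair to form AP-1, Egr proteins are zinc-finger factors, Nr4a1 is an orphan nuclear receptor, and Ier2 is a small nuclear protein. In dividing progenitors AP-1 and Egr1 accompany the response to mitogens.

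Total counts per library ranged from 16509710 to 22245224. Each group held 1 library from each of the 3 experiments, which the column names call 17_9, 25_9 and 1_10, and libraries with the same number are paired. Trp53 had 80.3 to 109 CPM (counts scaled to library size) in the p53+/+ libraries alone and 11.7 to 17.4 CPM in the p53-/- libraries alone, and Cdkn1a, a direct target of p53, fell by 4.74 ± 0.51 (SE) on the log2 scale in p53-/- NPCs alone (adjusted p = 0.000127), so that the genotype labels held. The progenitor markers Sox2 and Nes were present in all 12 libraries, at 108 CPM or more.

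Both libraries of NPCs alone from experiment 17_9 stood apart from the other alone libraries in the genes studied here. In the p53+/+ library alone of 17_9 the members were at 1.92 times (Jun) to 106 times (Fosb) the mean of the other p53+/+ libraries alone. In the p53-/- library alone of 17_9 they were at 2.04 times (Jun) to 34.5 times (Fosb) the corresponding mean. Over 2-fold in both genotypes were 9 of the 10 members, against 2.39% of all 13745 genes tested, and Jun was the member just outside, in p53+/+ NPCs. The co-culture libraries of the same experiment had no member over 2-fold in both genotypes, beside 0.109% of all genes tested. In co-culture the members of 17_9 ran from 0.904 times (Fosl1) to 2.58 times (Fosb) the other p53+/+ libraries, with Nr4a1 at 1.84 times. In p53-/- NPCs they ran from 0.749 times (Fosb) to 1.49 times (Fos). The alone libraries of 25_9 and of 1_10 had no member over 2-fold in both genotypes either, beside 0.0946% and 0.0364% of all genes. Because these 2 libraries set the group means alone, the counts of members called are given for all 12 libraries, with the experiment as a block, and without experiment 17_9. What set these libraries apart was not tested.

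**Figure D1:**
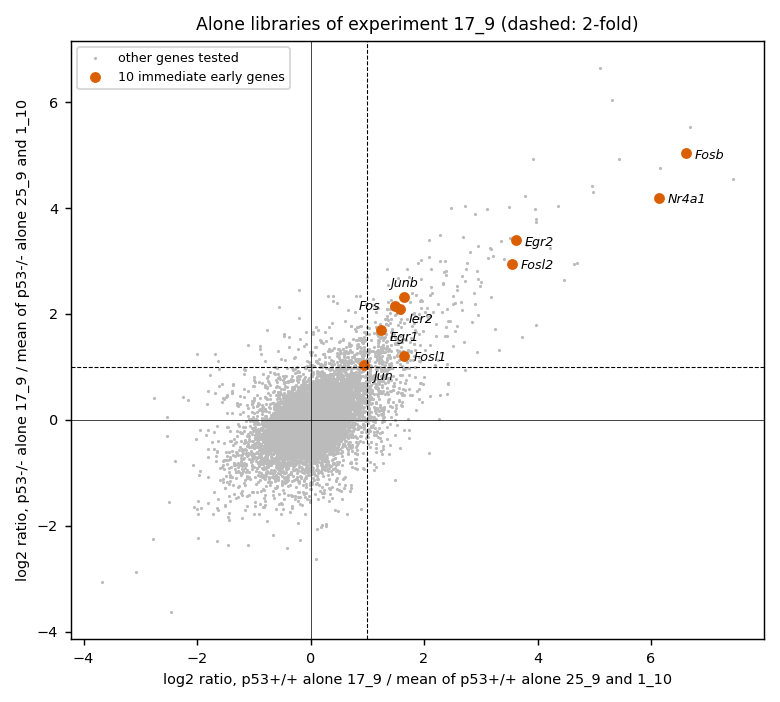
Each point is a gene tested, placed by the log2 ratio of its CPM in the p53+/+ library alone of experiment 17_9 to the mean of the other p53+/+ libraries alone (x axis) and by the same ratio in p53-/- NPCs (y axis), and dashed lines mark 2-fold. The 10 immediate early genes (orange) lie in or at the edge of the upper right corner, from Jun at 1.92 and 2.04 times to Fosb at 106 and 34.5 times.

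The promoters of 7 of the 10 members, all but Fosl1, Egr1 and Ier2, were matched by symbol in RefSeq windows of GRCm38.p6. The 250 bases before each start were searched on both strands for the CArG box bound by serum response factor, the CREB site TGACGTCA, the AP-1 site TGANTCA, the related octamer TGACATCA, the heptamer TGCGTCA and the EGR site GCGGGGGCG. The stretches shown are those of the members that held any of these letters. Capitals mark the motif letters and no capitals belong to more than 1 motif.
Fosb: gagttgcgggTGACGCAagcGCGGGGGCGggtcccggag
Fosl2: ccggctgcgcGCGGGGGCGgaagggcgcg
Jun: agcctcggggTGACATCAtgggctattt
Egr2, first box: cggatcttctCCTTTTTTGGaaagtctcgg
Egr2, second box: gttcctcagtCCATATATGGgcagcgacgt
Nr4a1, distal: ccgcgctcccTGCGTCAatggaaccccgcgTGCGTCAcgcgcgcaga
Nr4a1, proximal: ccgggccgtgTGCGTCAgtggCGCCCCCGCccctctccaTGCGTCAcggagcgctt
The Fosb stretch (chr7:19310077-19310115, minus strand, 70 to 32 bases before the start) holds TGCGTCA on its reverse strand and an EGR site. The Fosl2 stretch (chr5:32136383-32136411, plus strand) holds an EGR site, and the Jun stretch (chr4:95052250-95052277, minus strand, 55 to 28 bases before the start) holds the octamer TGACATCA. Egr2 has several annotated starts, and its CArG boxes lie at chr10:67537484-67537513 and chr10:67537787-67537816, both on the plus strand. The Nr4a1 stretches (chr15:101266601-101266647 and chr15:101266765-101266820, plus strand) hold 4 copies of TGCGTCA and 1 EGR site on the reverse strand. Of all 27025 genes with a window, 1.62% had a CArG box, 2.93% an EGR site, 3.41% TGACATCA, 1.77% TGACGTCA, 7.82% TGANTCA and 2% TGCGTCA, and Nr4a1 was the only 1 with 4 or more copies of TGCGTCA. The 250 bases searched for Fos and Junb held no match to these letters. Sites further upstream and variants of these letters were not searched, so that the absence of a match does not mean that a promoter lacks such a site. A match is a description of the sequence and says nothing about binding in these cells.

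Fos, the founding member of the AP-1 family, was at least as high in co-culture as alone in every experiment. In p53+/+ NPCs alone Fos was at 120.4, 51.3 and 34.6 CPM in experiments 17_9, 25_9 and 1_10, and in co-culture at 202, 147 and 108 CPM. In p53-/- NPCs it was at 132, 36.6 and 22.8 CPM alone and at 132, 93.2 and 84.4 CPM in co-culture. The groups overlapped only through the alone libraries of 17_9, which were above the co-culture libraries of 1_10. In p53-/- NPCs the alone library of 17_9 was also above the co-culture library of 25_9. Within experiments the co-culture library had 1.68, 2.88 and 3.11 times the Fos level of the library alone in p53+/+ NPCs, and 1.00, 2.55 and 3.70 times in p53-/- NPCs.

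In the fit of all 12 libraries without a block, the log2 fold change of Fos on co-culture was 1.15 ± 0.56 (SE) in p53+/+ NPCs (adjusted p = 0.122, quasi-likelihood F test of edgeR, Benjamini-Hochberg over all genes tested) and 0.69 ± 0.56 in p53-/- NPCs (adjusted p = 0.356). With the experiment as a block Fos rose in both, by 1.32 ± 0.28 (adjusted p = 0.0019) and by 1.03 ± 0.28 (adjusted p = 0.00974). Without experiment 17_9 it rose by 1.59 ± 0.27 (adjusted p = 0.00275) and by 1.59 ± 0.27 (adjusted p = 0.00459). With the block, Fos was the 1 member called in both genotypes with all 12 libraries kept.

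Fosb, whose truncated ΔFosB form accumulates on repeated stimulation, had the widest range of the members in fold terms. In p53+/+ NPCs alone it was at 133, 1.44 and 1.07 CPM and in co-culture at 19.7, 9.19 and 6.11 CPM (experiments 17_9, 25_9 and 1_10). Its p53-/- levels were 66.6, 2.91 and 0.943 CPM alone and 5.21, 5.78 and 8.13 CPM in co-culture. The 4 other alone libraries lay below all 6 co-culture libraries, and the 2 of 17_9 lay above all of them. The counts behind these levels ran from 17 to 2124 reads. Co-culture against alone gave ratios of 0.149, 6.38 and 5.72 in p53+/+ NPCs and 0.0782, 1.98 and 8.62 in p53-/- NPCs.

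The log2 fold change of Fosb on co-culture was -1.94 ± 1.499 in p53+/+ NPCs (adjusted p = 0.323) and -1.89 ± 1.53 in p53-/- NPCs (adjusted p = 0.36) over all 12 libraries. Without experiment 17_9 the direction turned, and Fosb rose by 2.62 ± 0.47 (adjusted p = 0.00365) and by 1.83 ± 0.44 (adjusted p = 0.0215). With the block over all 12 libraries the values were -0.05 ± 1.18 and 0.21 ± 1.19, and neither was called.

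Fosl2, which encodes Fra-2, an AP-1 subunit that lacks the strong activation domain of Fos, was at 265, 21.3 and 24.1 CPM in p53+/+ NPCs alone and at 32.9, 31.4 and 39.4 CPM in co-culture. Its p53-/- levels were 143, 17.8 and 19.1 CPM alone and 34.4, 31.2 and 28.8 CPM in co-culture. The co-culture libraries were close to each other, with SDs of 4.22 and 2.82 CPM, whereas the SDs alone were 140.2 and 71.7 CPM. Fosl2 had log2 fold changes of -1.58 ± 0.90 (adjusted p = 0.182) and -0.93 ± 0.89 (adjusted p = 0.444) over all libraries. Without 17_9 it rose by 0.66 ± 0.16 (adjusted p = 0.0143) and by 0.72 ± 0.16 (adjusted p = 0.0159).

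Fosl1, which encodes Fra-1, had 48 to 218 reads per library. It was at 13.6, 3.23 and 5.29 CPM in p53+/+ NPCs alone and at 7.25, 8.28 and 7.75 CPM in co-culture. The p53-/- libraries had 6.01, 2.41 and 2.66 CPM alone and 6.41, 5.98 and 4.39 CPM in co-culture. Its log2 fold changes were 0.08 ± 0.44 (adjusted p = 0.898) and 0.60 ± 0.46 (adjusted p = 0.332). Without 17_9 Fosl1 rose by 0.93 ± 0.28 (adjusted p = 0.0319) and by 1.05 ± 0.29 (adjusted p = 0.0356), so that all 4 Fos genes rose on co-culture in both genotypes in those 8 libraries.

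The Jun genes, whose proteins are the obligate partners of Fos proteins, divided. Jun was at 322, 153 and 181 CPM in p53+/+ NPCs alone and at 162, 148 and 154 CPM in co-culture. The p53-/- libraries had 321, 158 and 156 CPM alone and 128, 134 and 125 CPM in co-culture. It was lower in co-culture than alone in all 6 within-experiment pairs, with ratios from 0.3999 to 0.503 in 17_9 and from 0.799 to 0.965 in the other experiments. The log2 fold change was -0.50 ± 0.28 in p53+/+ NPCs (adjusted p = 0.18) and -0.71 ± 0.29 in p53-/- NPCs (adjusted p = 0.0674). With the block Jun fell in p53-/- NPCs by 0.62 ± 0.20 (adjusted p = 0.0248), and DESeq2 called it lower there as well (adjusted p = 0.0336). Without 17_9 the differences were -0.13 ± 0.13 (adjusted p = 0.478) and -0.26 ± 0.13 (adjusted p = 0.192).

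Junb, a Jun partner that is a weaker activator and an inhibitor of proliferation in many cells, was at 51.4, 20.7 and 11.9 CPM in p53+/+ NPCs alone and at 53.1, 56.7 and 26.6 CPM in co-culture. Among p53-/- libraries Junb was at 57.6, 14.8 and 8.21 CPM alone and at 31.7, 29.4 and 22.01 CPM in co-culture. Outside 17_9 the co-culture library had 2.24 to 2.74 times the Junb level of its partner alone in p53+/+ NPCs and 1.99 to 2.68 times in p53-/- NPCs. The log2 fold changes over all libraries were 0.71 ± 0.62 (adjusted p = 0.385) and 0.04 ± 0.62 (adjusted p = 0.964). Junb rose in p53+/+ NPCs with the block, by 0.91 ± 0.36 (adjusted p = 0.0497), and without 17_9, by 1.37 ± 0.41 (adjusted p = 0.0325). In p53-/- NPCs without 17_9 the value was 1.17 ± 0.41 (adjusted p = 0.0799).

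Egr1, the zinc-finger factor most often used as a readout of ERK signalling, was at 525, 239.8 and 204 CPM in p53+/+ NPCs alone and at 231, 194 and 229 CPM in co-culture. Among p53-/- libraries Egr1 was at 744, 253 and 206 CPM alone and at 255, 234 and 294 CPM in co-culture. Outside 17_9 the ratios of co-culture to alone lay on both sides of 1, from 0.810 to 1.12 and from 0.924 to 1.43. The log2 fold changes were -0.57 ± 0.42 (adjusted p = 0.309) and -0.62 ± 0.42 (adjusted p = 0.273) over all libraries, and -0.05 ± 0.17 (adjusted p = 0.838) and 0.22 ± 0.17 (adjusted p = 0.408) without 17_9. Egr1 was thus among the members with no call on co-culture in any of these fits.

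Egr2, a factor of the same family that is best known from hindbrain and Schwann cell development, was at 82.1, 8.14 and 5.09 CPM in p53+/+ NPCs alone and at 7.41, 6.73 and 8.90 CPM in co-culture. Among p53-/- libraries Egr2 was at 71.6, 8.61 and 4.88 CPM alone and at 13.4, 10.95 and 12.7 CPM in co-culture. The 3 p53-/- co-culture libraries lay above the 3 p53+/+ co-culture libraries. The log2 fold changes on co-culture were -2.04 ± 1.01 (adjusted p = 0.125) and -1.201 ± 0.97 (adjusted p = 0.359), and without 17_9 they were 0.25 ± 0.32 (adjusted p = 0.582) and 0.82 ± 0.31 (adjusted p = 0.101).

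Nr4a1, an orphan nuclear receptor with no classical ligand, was second to Fosb in its distance from the other libraries in 17_9. In p53+/+ NPCs alone it was at 446, 6.11 and 6.36 CPM and in co-culture at 26.7, 17.5 and 11.5 CPM. In p53-/- NPCs it was at 294, 16.7 and 15.3 CPM alone and at 26.6, 23.5 and 22.7 CPM in co-culture. Outside 17_9 the order of the groups was p53+/+ alone, then p53+/+ co-culture and p53-/- alone, which overlapped, then p53-/- co-culture. The log2 fold change on co-culture was -3.04 ± 1.44 (adjusted p = 0.11) in p53+/+ NPCs and -2.17 ± 1.39 (adjusted p = 0.241) in p53-/- NPCs. Without 17_9 Nr4a1 rose by 1.23 ± 0.22 in p53+/+ NPCs (adjusted p = 0.00332), and the value in p53-/- NPCs was 0.54 ± 0.20 (adjusted p = 0.094).

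Ier2 was at 67.9, 26.2 and 19.1 CPM in p53+/+ NPCs alone and at 31.8, 30.8 and 22.8 CPM in co-culture. In p53-/- NPCs it was at 93.6, 24.96 and 18.6 CPM alone and at 24.2, 26.6 and 25.7 CPM in co-culture. Its log2 fold changes were -0.40 ± 0.53 (adjusted p = 0.573) and -0.84 ± 0.53 (adjusted p = 0.237), and without 17_9 they were 0.26 ± 0.22 (adjusted p = 0.411) and 0.28 ± 0.22 (adjusted p = 0.416). Ier2 was not called on co-culture in any of these fits.

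**Figure D2:**
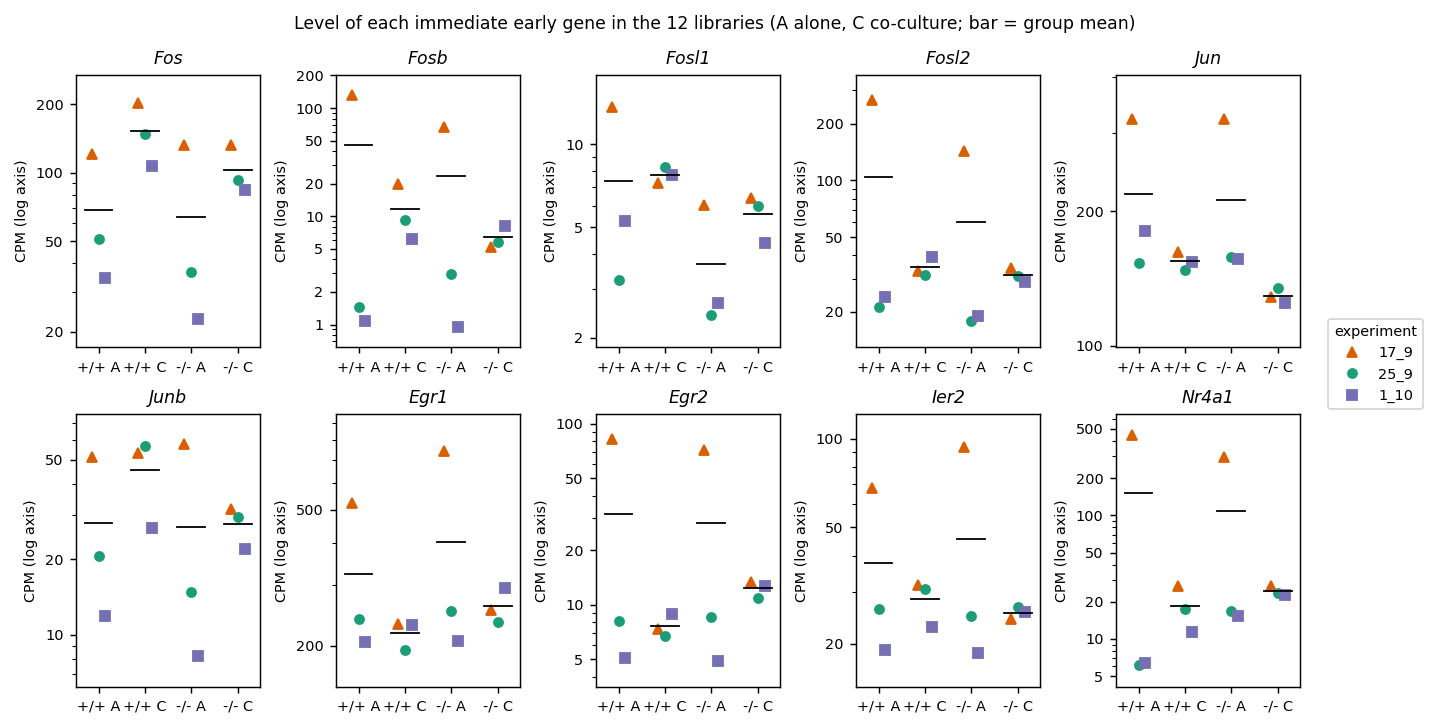
Each panel shows 1 gene, with CPM on a log axis, the 4 groups on the x axis (A alone, C co-culture), a marker for each library by experiment and a bar at the group mean. The triangles of experiment 17_9 are far above the other libraries in both groups alone (Nr4a1 at 446 against 6.11 and 6.36 CPM in p53+/+ NPCs), and lie among or near them in co-culture.

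Counted over the members, 0 of 10 were called on co-culture in p53+/+ NPCs in the fit of all 12 libraries, where 39.5% of all genes tested were called, and 0 of 10 in p53-/- NPCs, where 35.8% were. At an unadjusted p under 0.05 the counts were 0 and 1 (Jun), and DESeq2 called 0 and 1 (Jun again, beside 39% of all genes). DESeq2 without a block gave no p-value for Fosb, Fosl2 and Nr4a1 in any comparison, so that it could not call them. The median log2 fold change of the members was -0.53 in p53+/+ NPCs and -0.78 in p53-/- NPCs, against 0.00 and -0.01 over all genes. With the block, 2 members were higher in p53+/+ NPCs (50.4% of all genes were called), and 1 was higher and 1 lower in p53-/- NPCs (47.5%). Besides Fosb, the members furthest from the other libraries in 17_9 had blocked log2 fold changes nearer to 0 than those without the block, at -1.01 ± 1.04 and -0.41 ± 0.96 for Nr4a1, -0.58 ± 0.66 and -0.15 ± 0.64 for Fosl2 and -1.05 ± 0.74 and -0.29 ± 0.71 for Egr2 in p53+/+ and p53-/- NPCs, and none of these was called. Without 17_9, 6 members were higher in p53+/+ NPCs (29.4%) and 4 in p53-/- NPCs (19%), and none was lower. The median over the members was then 0.79 and 0.77, against 0.02 and 0.00 over all genes. Each experiment was left out in turn, but 17_9 was singled out because these members were high in its alone libraries. Its removal therefore lowers their level alone. Leaving out 25_9 or 1_10 instead changed the call of none of the 50 results (the members in each comparison and the interaction).

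The values were similar when only the 2 alone libraries of 17_9 were left out and its co-culture libraries were kept, a fit chosen after seeing the data. In it 6 members rose in p53+/+ NPCs (40% of all genes were called) and 6 in p53-/- NPCs (33.3%). The second group of 6 held the 4 Fos genes, Junb (1.26 ± 0.36, adjusted p = 0.0201) and Egr2 (0.86 ± 0.26, adjusted p = 0.0272). With both the block and the removal of 17_9, also chosen after seeing the data, 6 were higher in p53+/+ NPCs (53.5%), and 7 were higher and 1 lower, Jun, in p53-/- NPCs (44.6%). Jun, Egr1 and Ier2 were not called higher on co-culture in any of these fits.

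**Figure D3:**
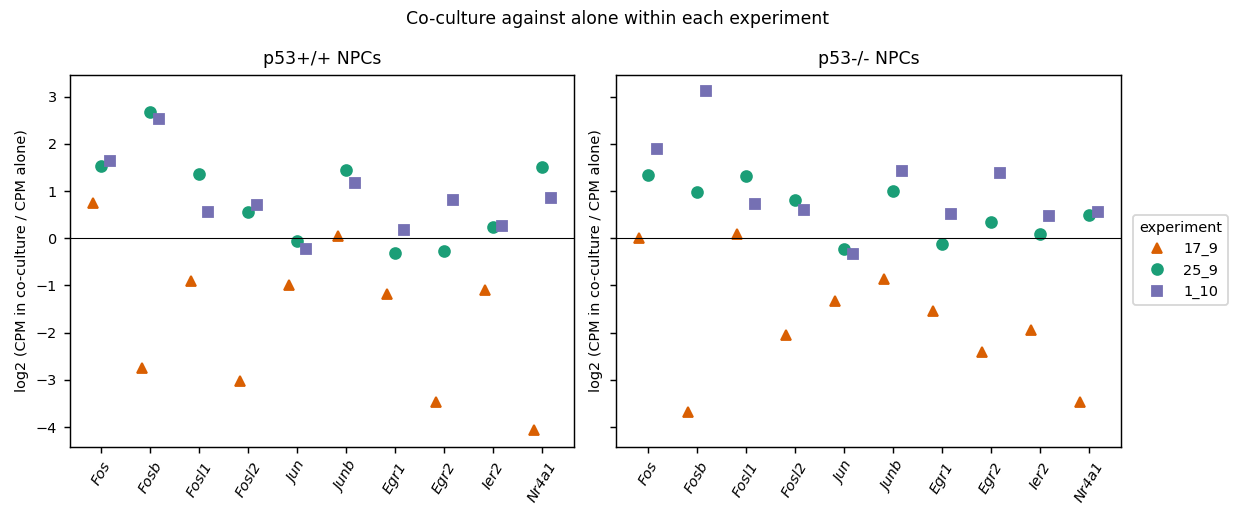
For each gene the log2 ratio of CPM in co-culture to CPM alone is plotted on the y axis for each of the 3 experiments, in p53+/+ NPCs (left) and p53-/- NPCs (right). The circles and squares of 25_9 and 1_10 lie above 0 for the 4 Fos genes, Junb, Ier2 and Nr4a1 and below 0 for Jun, and the triangles of 17_9 reach ratios of 0.0599 and 0.0904 for Nr4a1.

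RNA of the endothelial monolayer moved with co-culture. Of 24 endothelial markers tested, 22 were higher and 1 lower on co-culture in p53+/+ NPCs, and 21 were higher in p53-/- NPCs. Over all genes tested 39.5% and 35.8% were called. The summed level of the endothelial list was 57.3 to 79.3 CPM in p53+/+ libraries alone and 177 to 273 CPM in co-culture. In p53-/- NPCs it was 43.9 to 58.4 CPM against 161 to 207 CPM. Tie1 and Sox17 had no count in any p53+/+ library alone, and Sox17 had none in any p53-/- library alone. The part of endothelial RNA in the co-culture levels of the immediate early genes was not tested. In the alone libraries of 17_9 the endothelial sum was 79.3 and 58.4 CPM, below every co-culture library. Of 15 heat shock genes, markers of protein stress, 3 were higher and 8 lower on co-culture in p53+/+ NPCs, beside 39.5% of all genes called. In p53-/- NPCs 1 was higher and 7 lower, beside 35.8%. The sums of the 15 genes alone were 9701 and 11288 CPM in 17_9 and 9217 to 11835 CPM in the other experiments. Of the 15, 2 were over 2-fold in both alone libraries of 17_9, where 2.39% of all genes were. They were Hspb1, at 4.32 and 5.15 times, and Hspa1a, at 2.61 and 2.48 times the other alone libraries, and they were named after their values were seen. Their levels there were low, Hspb1 at 2.94 and 3.68 CPM and Hspa1a at 3.75 and 2.81 CPM in p53+/+ and p53-/- NPCs. Each co-culture library had more of both than its partner alone. The part of protein stress in these libraries was not tested.

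On loss of p53 in NPCs alone, 0 of 10 members were called over all 12 libraries, beside 6.29% of all genes, and 0 of 10 with the block, beside 16.6%. At an unadjusted p under 0.05 the counts were 0 and 1. DESeq2 without a block called 0, with no p-value for Fosb, Fosl2 and Nr4a1. DESeq2 with the block called 1, Fosl1, lower by 0.95 on the log2 scale (adjusted p = 0.0298), beside 18.7% of all genes. In the edgeR fit without a block the member with the smallest adjusted p was also Fosl1, with a log2 fold change of -0.98 ± 0.46 (adjusted p = 0.212), and all 6 within-experiment pairs had less Fosl1 in the p53-/- library. Its ratios of p53-/- to p53+/+ were 0.441, 0.748 and 0.504 alone and 0.885, 0.722 and 0.567 in co-culture. Egr1 was higher in the p53-/- library in all 6 pairs, at 1.01 to 1.42 times. The share of all genes that moved 1 way in all 6 pairs was not counted. The members' SEs ran from 0.28 for Jun to 1.45 for Fosb, so that a change of 2-fold in Fosb could not have been resolved with these libraries.

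Nr4a1 was called on p53 loss only when the alone libraries of 17_9 were left out. In experiments 25_9 and 1_10 the p53-/- libraries alone had 2.74 and 2.41 times the Nr4a1 level of the p53+/+ libraries alone, and in 17_9 they had 0.660 times. Without 17_9 Nr4a1 was higher by 1.35 ± 0.22 on the log2 scale (adjusted p = 0.0131), 1 member of 10 beside 2.65% of all genes. Without only the 2 alone libraries of 17_9 it was higher by 1.36 ± 0.30 (adjusted p = 0.0332), beside 3.19% of all genes. Over all 12 libraries the value was -0.49 ± 1.32 (adjusted p = 0.853).

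On loss of p53 in co-culture, 0 of 10 members were called over all 12 libraries, beside 8.16% of all genes, 0 with the block, beside 20.9%, and 0 without 17_9, beside 4.04%. None had an unadjusted p under 0.05 over all libraries. That fit shares its spread per gene with the alone libraries, those of 17_9 among them, which widens the SEs here. Without the alone libraries of 17_9, a fit chosen after seeing the data, the SE of Egr2 fell from 1.00 to 0.23. No member was called then (13% of all genes were), and 5 had an unadjusted p under 0.05 (Fos, Fosl1, Jun, Junb and Egr2). A fit of only the co-culture groups called Egr2 higher, and its share of all genes called is not given here. DESeq2 called none, with no p-value for Fosb, Fosl2 and Nr4a1 without a block. All 3 experiments had less Fos in the p53-/- library, at 0.654, 0.632 and 0.784 times the p53+/+ level, and less Junb, at 0.597, 0.519 and 0.827 times. Jun was also lower in all 3, at 0.793, 0.909 and 0.810 times, as was Fosl1, at 0.885, 0.722 and 0.567 times. Egr2 was higher in all 3, at 1.81, 1.63 and 1.42 times, as was Egr1, at 1.10, 1.203 and 1.29 times. The share of all genes that moved 1 way in all 3 experiments was not counted. The log2 fold changes over all libraries were -0.56 ± 0.56 for Fos, -0.71 ± 0.62 for Junb, -0.26 ± 0.28 for Jun and -0.47 ± 0.45 for Fosl1. They were 0.69 ± 1.00 for Egr2 and 0.26 ± 0.42 for Egr1, and the adjusted p of these genes ran from 0.501 to 0.743.

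With the block and without 17_9, Fos, Fosl1 and Junb were lower and Nr4a1 was higher in p53-/- NPCs, both alone (20.7% of all genes were called) and in co-culture (32.8%). Fos fell by 0.55 ± 0.12 alone (adjusted p = 0.00338) and by 0.51 ± 0.11 in co-culture (adjusted p = 0.00187). Nr4a1 rose by 1.35 ± 0.16 (adjusted p = 1e-05) and by 0.67 ± 0.15 (adjusted p = 0.00198). This fit rests on 2 experiments of 4 libraries each, was chosen after seeing the data, and called a larger share of all genes than any fit of the p53 comparisons without the block.

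The interaction asks whether the effect of co-culture depends on p53. None of the members was called, beside 0.0364% of all genes, and none had an unadjusted p under 0.05. DESeq2 called none, with no p-value for Fosb, Fosl2 and Nr4a1 without a block. With the block none was called either, beside 0.08% of all genes. Without the block the interaction terms ran from -0.66 ± 0.87 for Junb to 0.87 ± 1.90 for Nr4a1 on the log2 scale, and their SEs from 0.40 for Jun to 2.11 for Fosb. Without 17_9 the term of Nr4a1 was -0.69 ± 0.29 with an unadjusted p of 0.0426 and an adjusted p of 1. With the block as well, a fit chosen after seeing the data, it was -0.68 ± 0.22, with an unadjusted p of 0.00646 and an adjusted p of 0.145. The rise of Nr4a1 on co-culture in p53+/+ NPCs without 17_9, and the missing call in p53-/- NPCs, are thus not shown to differ.

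**Figure D4:**
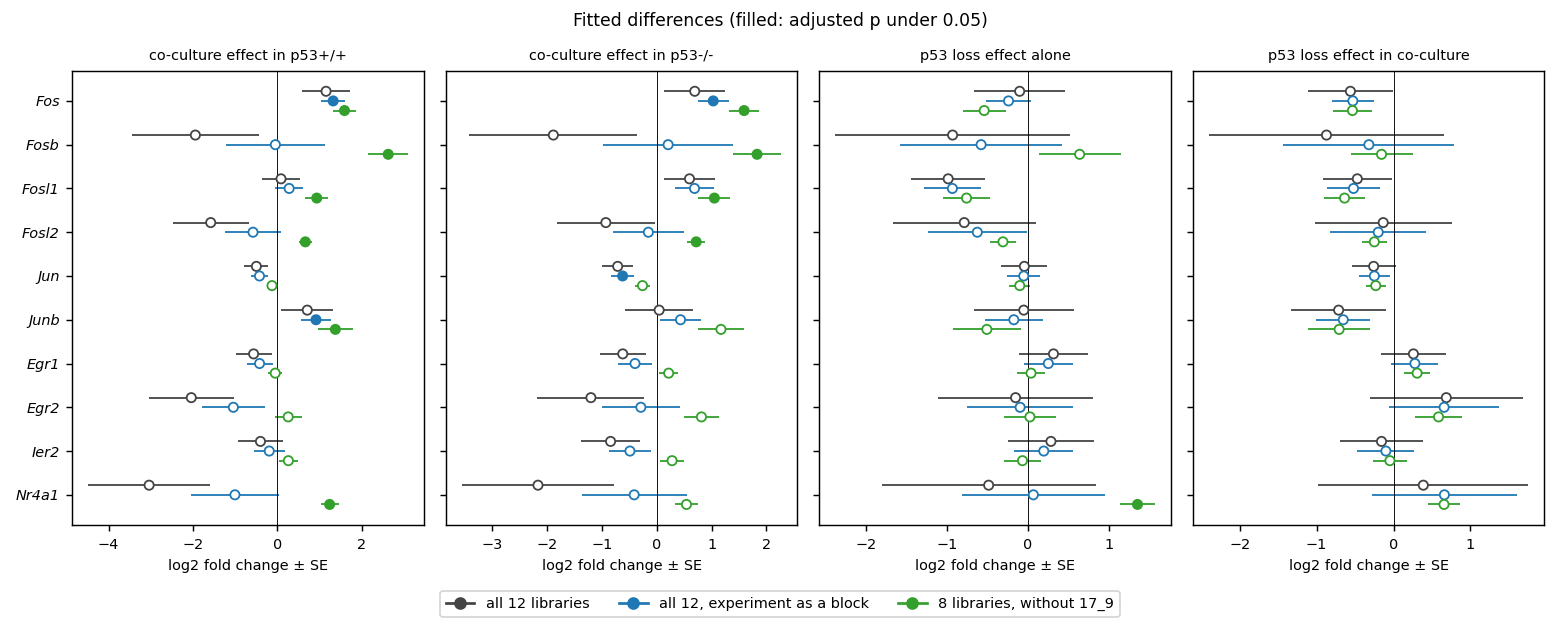
Log2 fold changes with their SEs (x axis) of the 10 genes in the 4 pairwise comparisons, for all 12 libraries (grey), with the experiment as a block (blue) and without experiment 17_9 (green), filled where the adjusted p was under 0.05. The green points of Fosb, Fosl2, Egr2, Ier2 and Nr4a1 lie on the other side of 0 from the grey points for co-culture in p53+/+ NPCs (Fosb 2.62 against -1.94).

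The members moved together across the libraries mainly through experiment 17_9. Over the 12 libraries the 45 pairs of members had a median Pearson r of 0.778 between log2 CPM values (0.162 to 0.958), and between deviations from the group means 0.929 (0.749 to 0.982). Without 17_9 the median r of the levels over 8 libraries was 0.364, with a range from -0.812 to 0.957 and 12 negative pairs. Over the 6 co-culture libraries it was 0.205. These are descriptions: libraries of 1 experiment are paired, and the values over 12 libraries include the 2 alone libraries that stood apart.

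**Figure D5:**
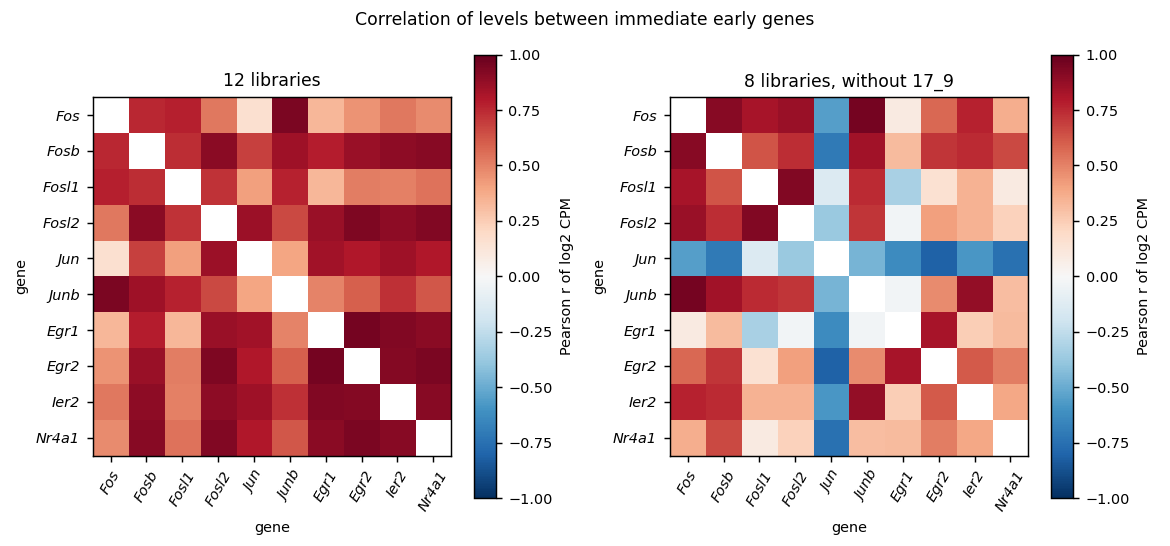
Pearson r between the log2 CPM of each pair of genes (both axes list the 10 genes), over 12 libraries on the left and over 8 libraries without 17_9 on the right, with red for positive and blue for negative values. The left panel has no negative pair, and the right panel has 12, most of them in the row of Jun.

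Among 11111 other genes whose mean log2 CPM was 2 or higher, those with the pattern most like 1 member of each subfamily over the 12 libraries were found by Pearson r. Fos was nearest to Myof (0.986), Gcnt2 (0.969) and Gnao1 (0.968). Jun was nearest to Adamts1 (0.967), Ier3 (0.961) and Rgs16 (0.959). Egr1 was nearest to Filip1l (0.954), Dusp1 (0.952), a phosphatase that inactivates MAP kinases, and Pde4d (0.950). Nr4a1 was nearest to Trib1 (0.967), Ptgs2 (0.962), which encodes the inducible cyclooxygenase, and Dusp1 (0.961). The 2 alone libraries of 17_9 are among these 12, and the search was not repeated without them.

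Other genes of the response were read from lists. Of 51 other early response genes tested, 4 were higher and 10 lower on co-culture in p53+/+ NPCs, and 1 was higher and 5 lower in p53-/- NPCs, where 39.5% and 35.8% of all genes were called in either direction. Their median log2 fold changes were -0.52 and -0.38. In the alone libraries of 17_9, 26 of the 51 were over 2-fold in both genotypes, against 2.39% of all genes, and the summed level of the list was 7290 and 6569 CPM, against 2122 to 2323 CPM in the other alone libraries. Without 17_9, 8 were higher and 3 lower in p53+/+ NPCs and 9 were higher and 4 lower in p53-/- NPCs, beside 29.4% and 19% of all genes called, with medians of 0.11 and 0.20. Myc was lower on co-culture in p53-/- NPCs by 0.90 ± 0.19 on the log2 scale (adjusted p = 0.00321), Plk2 by 1.56 ± 0.37 (adjusted p = 0.00631), and Hbegf, an EGF receptor ligand, was lower in p53+/+ NPCs by 2.41 ± 0.62 (adjusted p = 0.00863). Without 17_9 these 3 were still lower, but by less, Myc by 0.56 ± 0.13 (adjusted p = 0.0167), Plk2 by 0.96 ± 0.13 (adjusted p = 0.0017) and Hbegf by 1.21 ± 0.16 (adjusted p = 0.000918). These genes are given in the comparison with their smallest adjusted p. On co-culture the group means also fell in p53+/+ NPCs for Myc (105 to 58.3 CPM) and Plk2 (165 to 59.6 CPM). In p53-/- NPCs the mean of Hbegf fell from 234 to 49.8 CPM. Tob1, an antiproliferative gene, fell by 1.18 ± 0.11 on p53 loss alone (adjusted p = 4.11e-05). In co-culture the mean of Tob1 was 52.7 CPM in p53+/+ and 26.9 CPM in p53-/- NPCs.

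Some of the closest relatives of the members were also high in 17_9. Of 11 other AP-1 and bZIP partners, 3 were over 2-fold in both alone libraries of 17_9, Atf3 at 71.5 and 26.9 times, Maff at 6.34 and 4.21 times and Mafk at 3.84 and 4.798 times. Of 6 other Egr, Nab and Nr4a genes, 3 were (2.39% of all genes were), Egr3 at 31.5 and 19.9 times, Egr4 at 7.69 and 9.74 times and Nr4a3 at 15.6 and 3.47 times. These genes were named after their values were seen. On co-culture over all 12 libraries 1 of the 11 partners was higher and 2 lower in each genotype, where 39.5% and 35.8% of all genes were called. Atf4, a factor of the integrated stress response, was lower by 0.72 ± 0.14 in p53-/- NPCs (adjusted p = 0.00181), Atf7 was higher there by 0.85 ± 0.26 (adjusted p = 0.0213), and Maff was lower by 2.47 ± 0.73 in p53+/+ NPCs (adjusted p = 0.0176). Without 17_9 Maff was lower by 0.90 ± 0.25 (adjusted p = 0.0229), and Atf7 was no longer called (0.45 ± 0.18, adjusted p = 0.103). In the other genotype Atf4 and Maff were also lower on co-culture in every experiment. Atf7 in p53+/+ NPCs was higher only in 1_10. Of the 6, 2 were lower in p53+/+ NPCs and none was called in p53-/- NPCs. Nab2, a co-repressor of Egr1, was lower in p53+/+ NPCs by 0.49 ± 0.15 (adjusted p = 0.0197), and was not called without 17_9 (-0.36 ± 0.15, adjusted p = 0.0925). In p53-/- NPCs Nab2 was also lower on co-culture in every experiment.

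Genes that act before and after the immediate early genes in the ERK cascade were read in the same way. Of 18 ERK feedback genes, 1 was higher and 6 lower on co-culture in p53+/+ NPCs, and the counts in p53-/- NPCs were 1 and 5, with 39.5% and 35.8% of all genes called. Spry1 and Spry4, inhibitors of receptor tyrosine kinase signalling, were lower in p53+/+ NPCs by 1.49 ± 0.25 (adjusted p = 0.00054) and by 1.51 ± 0.34 (adjusted p = 0.00419), and Phlda1 was lower in p53-/- NPCs by 1.19 ± 0.21 (adjusted p = 0.00126). Rasgrp1, an activator of Ras, was higher in p53+/+ NPCs by 2.93 ± 0.30 (adjusted p = 1.82e-05). In the other genotype Spry1, Spry4, Phlda1 and Rasgrp1 moved the same way in every experiment. Without 17_9 the counts were 1 and 7 in p53+/+ NPCs and 1 and 3 in p53-/- NPCs (29.4% and 19% of all genes), and Spry4 was lower in p53+/+ NPCs by 0.99 ± 0.21 (adjusted p = 0.00812). In 17_9, 5 of the 18 were over 2-fold in both alone libraries, as were 2.39% of all genes.

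Of 28 upstream regulators, 3 were higher and 6 lower on co-culture in p53+/+ NPCs, and 3 were higher and 4 lower in p53-/- NPCs, beside 39.5% and 35.8% of all genes. Elk3, an ETS partner of serum response factor, was lower by 0.85 ± 0.10 in p53+/+ NPCs (adjusted p = 6.24e-05), and Atf1, a CREB relative, by 0.66 ± 0.15 (adjusted p = 0.00465). Fgfr3 was higher by 1.00 ± 0.14 (adjusted p = 0.000204) and the JNK gene Mapk10 by 0.64 ± 0.11 (adjusted p = 0.000639). In p53-/- NPCs Elk3, Atf1, Fgfr3 and Mapk10 moved the same way in every experiment. Srf, which encodes serum response factor, was the 1 regulator of the 28 over 2-fold in both alone libraries of 17_9, at 4.18 and 3.77 times (2.39% of all genes were), and it was named after its value was seen. On p53 loss 0 of the 6 Egr, Nab and Nr4a genes and 0 of the 11 AP-1 and bZIP partners were called, alone or in co-culture, beside 6.29% and 8.16% of all genes.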

How the data were processed

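RNA was measured by stranded mRNA-seq in 12 libraries. The authors used TopHat2 2.0.11 (paired 100-base reads, mm9) and then HTSeq 0.6.1, whose raw counts per gene are the deposited values. The sources used here do not give the strand setting or annotation version, so overlapping and antisense genes are uncertain. Table columns named the group and the experiment but not the repeat number of the labels.

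Of 24108 genes listed, 13745 passed filterByExpr of edgeR 4.0.16 (R 4.3.3). Counts were scaled by TMM (factors 0.961 to 1.04), and the quasi-likelihood F test was run with 1 coefficient per group on all 12 libraries. P-values were adjusted by Benjamini-Hochberg over all genes tested, with a threshold of 0.05. CPM are TMM-scaled, and log2 CPM used a prior count of 2. SEs are the fold change divided by the square root of F. Alternatives were DESeq2 1.42.0, other scalings and filters, a threshold of 0.01, fits without the groups not compared, the experiment as a block, and each library or experiment left out. Fits were tested on simulated counts.

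The key of the study's supplementary count table says that experiments with identical numbers are paired. As a check, each library's deviation from its group mean was correlated over genes with that of the others: all 18 same-number pairs were positive (r from 0.128 to 0.618), against -0.608 to 0.241 in the 36 other pairs between groups. Blocked values are given beside the results they change. Counts of libraries of 1 group differed by 13.2 to 62.5 times the counting variance, so none was a copy. Nothing says whether the 3 experiments used separate animals, so that p-values measure the spread between these cultures.

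The members and gene lists were chosen with earlier results of these data known. The lists are other AP-1 and bZIP partners, other Egr, Nab and Nr4a genes, other early response genes, ERK feedback genes, upstream regulators, heat shock genes and markers of endothelial cells, mural cells and fibroblasts, microglia, neural progenitors and astroglia, and neurons. Named genes are all members, up to 4 called genes of each list with the smallest adjusted p and a mean log2 CPM of at least 2, the 3 genes most like Fos, Jun, Egr1 and Nr4a1, and Trp53 and Cdkn1a. A called gene of a list is given in the comparison with its smallest adjusted p, which does not make its change particular to that genotype or culture. Promoter sequences are RefSeq windows of GRCm38.p6. Figures were drawn with matplotlib.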

Additional observations from a re-analysis of the deposited data

How the results depend on the processing

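No member was called in any of the 5 comparisons over all 12 libraries, and with scaling by library size alone, by upper quartile or by DESeq2, at least 10 counts in every library or a threshold of 0.01 the count stayed at 0 in each. For co-culture in p53+/+ NPCs the count was 2 with the replicate block (50.4% of all genes were called) and 1 in DESeq2 with that block (49.5%). The count was 0 to 6 on leaving out 1 library or experiment. In fits added after seeing the data it was 6 without the 2 alone libraries of 17_9 (40%) and 6 without 17_9 with the block (53.5%). For p53-/- NPCs the count was 1 in DESeq2 (39%), 2 with the block in edgeR (47.5%) and 2 with it in DESeq2 (47.2%). It was 1 without a filter, 0 to 4 on leaving out, and 6 and 8 in the added fits (33.3% and 44.6%). For p53 loss alone the count was 1 in DESeq2 with the block (Fosl1 lower, 18.7%), 0 to 1 on leaving out, and 1 and 4 in the added fits (3.19% and 20.7%). For p53 loss in co-culture it was 1 in a fit of only the groups compared (Egr2 higher) and 4 without 17_9 with the block (32.8%). Counts with no share beside them here cannot be read as high or low against all genes. The interaction gave 0 in every fit listed here. DESeq2 without the block could not call Fosb, Fosl2 or Nr4a1, which had no p-value in it.

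Signs of values that were called turned on leaving out experiment 17_9, its 2 alone libraries, or the experiment with the block, given here in that order. Other signs turned without a call. On co-culture in p53+/+ NPCs Fosb was 2.62, 3.20 and 2.61, Fosl2 0.66, 0.60 and 0.66 and Nr4a1 1.23, 1.57 and 1.22 on the log2 scale. In p53-/- NPCs Fosb was 1.83, 1.68 and 1.86 and Fosl2 0.72, 0.77 and 0.72, Egr2 was 0.86 and 0.83 in the last pair of fits, and Nr4a1 was 0.545 in the last. For p53 loss alone Nr4a1 was 1.35, 1.36 and 1.35. Over the fits that left out 1 library or experiment, the co-culture value in p53+/+ NPCs ran from -2.52 to 3.20 for Fosb, from -2.16 to 0.66 for Fosl2 and from -3.61 to 1.57 for Nr4a1, that in p53-/- NPCs from -2.63 to 1.83 for Fosb and from -1.37 to 0.77 for Fosl2, and that of Nr4a1 on p53 loss alone from -3.25 to 4.13. These turns follow from the removal of libraries in which Fosb, Fosl2, Egr2 and Nr4a1 were highest. Without the p53+/+ library alone of 17_9 Fos was called on co-culture in p53+/+ NPCs (1.82 ± 0.59, adjusted p = 0.0299), and without the p53-/- library alone it was called in p53-/- NPCs (1.79 ± 0.46, adjusted p = 0.0135). Without the p53-/- library alone of 17_9 Egr2 was called lower in p53+/+ NPCs (-2.04 ± 0.77, adjusted p = 0.0488). Jun was called lower in p53-/- NPCs without either of the other p53-/- libraries alone, or without the p53+/+ library alone of 17_9, with adjusted p from 0.0259 to 0.0387. The lowest counts were 17 reads for Fosb and 48 for Fosl1, and whether depth limited a call was not tested.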

Other observations

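Genes of other cell types were read in the same libraries, beside the immediate early genes. Of 9 mural cell and fibroblast markers tested, 3 were higher and 2 lower on co-culture in p53+/+ NPCs, and 3 higher and 3 lower in p53-/- NPCs. Over all genes tested 39.5% and 35.8% were called. The summed level of the list was 717 and 1279 CPM in the alone libraries of 17_9 and 120 to 229 CPM in the other alone libraries. Of the 9, 2 were over 2-fold in both alone libraries of 17_9, where 2.39% of all genes were. They were Acta2 and Tagln, contractile genes that are targets of serum response factor. They were at 8.66 and 15.8 times and at 6.42 and 10.9 times the other alone libraries in p53+/+ and p53-/- NPCs. Acta2 was at 432 and 765 CPM and Tagln at 240 and 441 CPM, so that these genes made up most of the sums in 17_9. Of 13 neural progenitor and astroglial markers, none was over 2-fold in both alone libraries of 17_9, where 2.39% of all genes were. On co-culture in p53+/+ NPCs 4 were higher and 2 lower, beside 39.5% of all genes. Among them was Gfap, which rose by 4.55 ± 0.35 (adjusted p = 1.64e-06). Of 7 neuronal markers tested, 1 was higher and 1 lower on co-culture in p53+/+ NPCs and none was called in p53-/- NPCs, beside 39.5% and 35.8% of all genes. Of these markers 1, Stmn2, was over 2-fold in both alone libraries of 17_9, at 4.15 and 3.90 times (2.39% of all genes were). Only 2 of 12 microglia markers were tested, and both were higher on co-culture in p53+/+ NPCs, beside 39.5% of all genes called. The summed level of the microglia list there was 3.81 to 4.47 CPM alone and 8.22 to 11.5 CPM in co-culture. In all, 328 genes were over 2-fold and 71 at less than 0.5 times in both alone libraries of 17_9.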
